A study of Mus musculus with 12 samples.

Results

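The genes described here encode enzymes and a transporter of the defence against oxidative stress, namely *Nqo1*, *Hmox1*, *Gclc*, *Gclm*, *Txnrd1*, *Srxn1*, *Slc7a11*, *Sod1*, *Sod2* and *Cat*. They were chosen by symbol, and all 10 were found among the 35976 gene symbols of each count table and passed the low-count filter in every comparison. RNA was sequenced from testes of mouse embryos at E15.5, in 12 libraries. Pregnant outbred females of the Swiss (RjOrl) stock received thiacloprid (*thia*), a neonicotinoid insecticide, in olive oil by gavage at 6 mg/kg/day from E6.5 to E15.5, and control females received the oil alone. The F1 libraries came from the embryos exposed in the womb. F3 embryos were reached through control-derived or *thia*-derived males mated with untreated females, so that only their F0 ancestors had been dosed. Each of the 4 groups, F1 control, F1 *thia*, F3 control and F3 *thia*, held 3 libraries, and each library was made from the pooled testes of 3 embryos. No transgene or deletion was involved, and the p-values measure the spread between these pools. The study bred F0 to F3 in repeated rounds and used males of different litters for each assay, but the round and litters of each pool are not given.

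Cells detoxify reactive oxygen species in steps. Superoxide dismutases turn superoxide into hydrogen peroxide, which is then removed by catalase, by peroxidases that draw on glutathione and by peroxiredoxins that draw on thioredoxin. Many of these genes are targets of NRF2, a transcription factor that KEAP1 marks for destruction in resting cells and that accumulates when KEAP1 is modified by oxidants or electrophiles.

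In F1 none of the 10 genes passed the adjusted test between control and *thia* testis with edgeR, where 0.0105% of all genes tested did. In F3 none did either, but there the share of all genes was 0%, with a smallest adjusted p of 0.101, so this does not set the members apart. DESeq2 called 1 member in F3, *Srxn1*, as higher in *thia*, as it did 9.54% of the 14768 genes to which it gave an adjusted p. *Srxn1*, which encodes sulfiredoxin, was the only member whose F3 *thia* libraries all lay above all F3 control libraries, with means of 16.3 ± 2.21 and 12.1 ± 1.60 CPM (SD, n = 3). Such a separation towards higher values was found in 13.4% of all genes tested in F3, and one in either direction in 27.3%. Its fitted difference in F1 was also the highest positive one of the 10, and there the groups overlapped. Between the control groups, *Gclm*, *Cat*, *Srxn1* and *Sod1* were higher and *Hmox1* was lower in F3 than in F1, 5 members of 10 where 42.3% of all genes passed.

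Levels are given in CPM (counts scaled to a common library total), scaled by TMM over the 12 libraries. The total count was 25081647 to 56638738 in F1 control libraries, 37867969 to 62786622 in F1 *thia*, 35216128 to 40614301 in F3 control and 38415415 to 68996146 in F3 *thia*. Counts of the 10 genes ranged from 66 (*Slc7a11* in F3 *thia* replicate 2) to 20028 (*Sod1* in F3 *thia* replicate 3). Of 6 Sertoli cell, 5 Leydig cell and 6 germ cell markers, none was at 0 in any library. The summed Sertoli cell markers held 534 to 1687 CPM and the summed ovarian markers 14.4 to 37.9 CPM. Red blood cell markers, 8 genes that included the globins, summed to 5264 to 19079 CPM in F1 and to 45447 to 83556 CPM in F3, with the highest value in F3 *thia* replicate 2. That library also stood apart from its own replicates. A chi-square statistic per degree of freedom, near 1 when only counting noise separates libraries, was 90.7 and 101 for its pairs and 17.3 to 42.2 for all other pairs of replicates. Results that rest on this library are given with and without it. In correlations with the red blood cell markers it was left out together with *thia* replicate 1.

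Compared per kilobase of exon, which allows genes to be ranked against each other, *Sod1* was the most abundant member in all groups and *Slc7a11* the least. In F1 control testis *Sod1* was at 369.7 ± 57.4 CPM per kb (SD, n = 3), followed by *Hmox1* at 52.7 ± 6.87, *Cat* at 33.9 ± 1.73 and *Txnrd1* at 20.5 ± 0.569. These 4 genes did not overlap with each other in any library of the group. *Sod2* came next at 9.39 ± 0.486 CPM per kb, then *Gclc* at 8.55 ± 0.314 and *Nqo1* at 8.45 ± 0.341, and the libraries of *Gclc* and *Nqo1* overlapped. *Gclm* was at 5.68 ± 0.323, *Srxn1* at 3.05 ± 0.216 and *Slc7a11* at 0.442 ± 0.157 CPM per kb. In F3 control testis the order changed. *Cat* at 59.2 ± 8.08 CPM per kb stood above *Hmox1* at 37.2 ± 4.03, without overlap, and *Gclm* at 11.02 ± 1.76 took the fifth place, where it overlapped with *Nqo1* at 10.2 ± 1.88. Over all libraries, the mean level of *Sod1* lay at percentile 99.3 of 17820 tested genes with a length, that of *Cat* at 90.7, that of *Hmox1* at 89.9, that of *Txnrd1* at 77.7, that of *Srxn1* at 46.3 and that of *Slc7a11* at 13.0. The other 4 lay between 59.6 and 62.1.

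**Figure D1:**
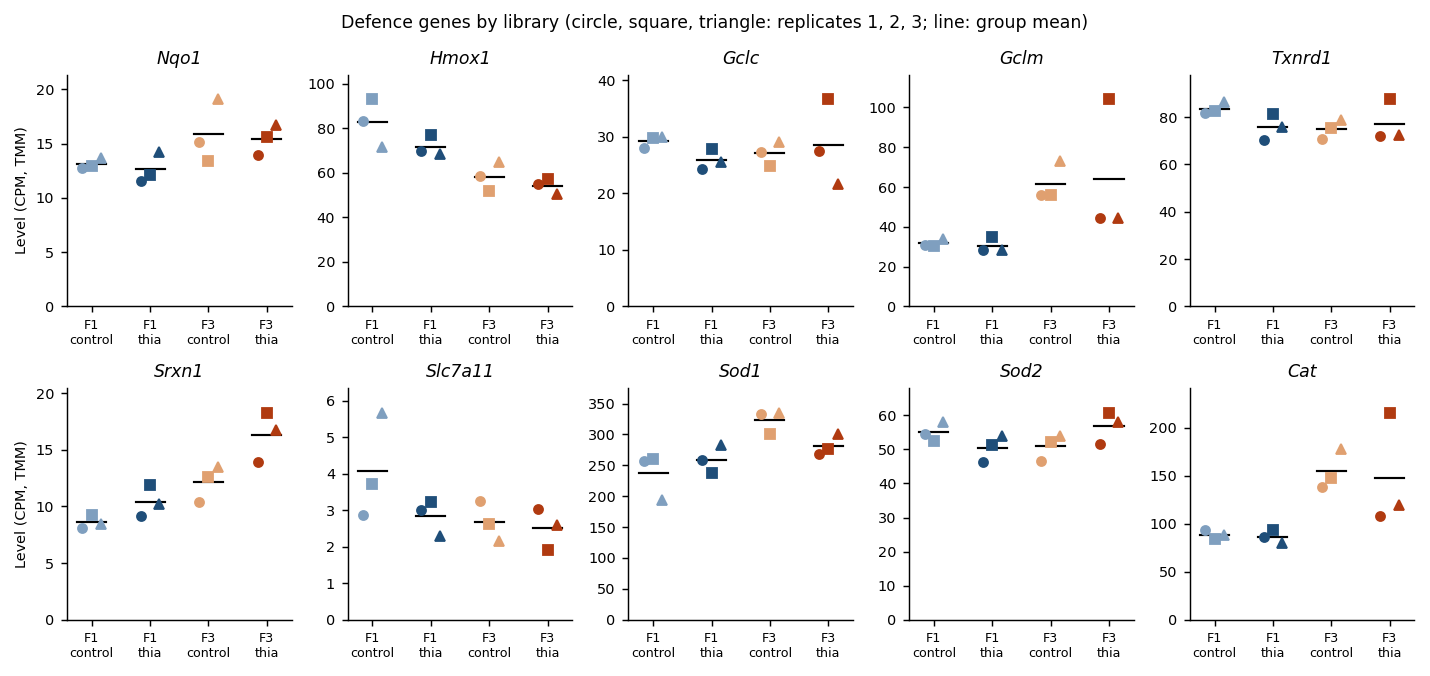
Level of each of the 10 genes in CPM (vertical axis, from 0) in each library of the 4 groups (horizontal axis). Circles, squares and triangles are replicates 1, 2 and 3, and lines are group means. The 3 F3 *thia* libraries of *Srxn1*, at 13.9 to 18.3 CPM, lie above all F3 control libraries, while *Cat* and *Gclm* are spread widely by F3 *thia* replicate 2.

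*Srxn1* lies on chromosome 2 of mm10 from 152105516 to 152111376. Sulfiredoxin restores peroxiredoxins that have been over-oxidised by peroxide, and the gene is a textbook NRF2 target. In F1 control testis it was at 8.07, 9.26 and 8.42 CPM in replicates 1, 2 and 3, and in F1 *thia* at 9.14, 11.9 and 10.2 CPM. Only *thia* replicate 1 fell inside the control range. In F3 control it was at 10.4, 12.6 and 13.5 CPM, and in F3 *thia* at 13.9, 18.3 and 16.7 CPM, without overlap. The log2 fold change of *thia* over control was 0.29 in F1 (1.22-fold, standard error 0.140, 95% interval -0.02 to 0.60, adjusted p = 0.584, edgeR). In F3 it was 0.42 (1.34-fold, standard error 0.152, interval 0.07 to 0.78, adjusted p = 0.179, edgeR), so that the interval excluded 0 while the adjusted test was not passed. DESeq2, the tool of the study, gave 0.43 in F3 with an adjusted p of 0.0729, which is under the study's threshold of 0.1, as it was for 9.54% of all genes in the same direction. Over all other settings the adjusted p of *Srxn1* in F3 was 0.107 to 0.467. The highest of these came without control replicate 1, where the log2 fold change was 0.32, and without *thia* replicate 2 it was 0.34. The effects in the generations differed by 0.15 (interval -0.29 to 0.59). Their mean, a contrast added after the values had been seen, was 0.35 (interval 0.13 to 0.57), with an adjusted p of 0.113 in edgeR and 0.0345 in DESeq2. In this contrast 2.75% of 19626 genes passed an FDR of 0.1 with edgeR, and none of the 10 members did. With DESeq2 10.8% of the 16667 genes with an adjusted p passed.

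The start region of *Srxn1* is shown because this gene had the largest *thia* effects of the 10 in F3. RefSeq promoters of GRCm38.p6 (mm10), 250 bases before to 50 bases after the start, were searched on both strands for TGACNNNGC, the core of the antioxidant response element to which NRF2 binds, and for TGAGNNNGC, a variant added after the sequences had been seen. Capitals mark the match, and the 10 bases on each side are in lower case. The first match of *Srxn1* (chr2:152105356-152105384, 158 bases upstream), the second (chr2:152105469-152105497, 45 bases upstream) and the last (chr2:152105542-152105570, 28 bases after the start) are followed by those of *Gclm* (chr3:122245413-122245441, 134 bases upstream) and *Sod1* (chr16:90220696-90220724, 56 bases upstream), members that differed between the control groups. All are printed as the plus strand, which is the strand of the 3 genes. The second match of *Srxn1* has the motif on that strand, and the other 4 have it on the opposite strand, so that their capitals show its reverse complement.
Srxn1 first match: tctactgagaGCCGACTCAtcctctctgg
Srxn1 second match: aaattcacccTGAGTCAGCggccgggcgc
Srxn1 last match: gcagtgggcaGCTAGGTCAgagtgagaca
Gclm match: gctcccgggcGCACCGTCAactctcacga
Sod1 match: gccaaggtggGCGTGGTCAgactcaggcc

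The second match of *Srxn1* also contains TGAGTCA, the letters bound by AP-1, so the motifs overlap there. *Srxn1* held both forms, with 3 matches. Of the 10 genes, 8 had a promoter in the table, and either form was found in *Gclm*, *Srxn1*, *Slc7a11*, *Sod1* and 1 of the 3 promoters of *Txnrd1*. The promoters of *Nqo1*, *Sod2* and *Cat* held neither in this window. TGACNNNGC occurred in 12.4% of 32851 mouse promoters of this length, TGAGNNNGC in 17.6% and either in 27.8%. A match is a match of letters, and binding was not measured in these data.

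*Txnrd1* (chromosome 10, 82833951 to 82897712) encodes the cytosolic thioredoxin reductase, which recharges thioredoxin with NADPH. It was at 82.0, 82.6 and 86.3 CPM in F1 control and at 70.2, 81.4 and 76.1 CPM in F1 *thia*, so that all 3 *thia* libraries were lower, a separation in either direction that 15.0% of all genes showed in F1. Its log2 fold change was -0.12 (interval -0.32 to 0.07, adjusted p = 0.665, edgeR). In F3 it was at 70.8, 75.5 and 78.9 CPM in control and at 72.0, 87.5 and 72.4 CPM in *thia*, with overlap (log2 fold change 0.04, interval -0.19 to 0.27). It varied little, by a coefficient of variation of 2.77 to 11.5% within groups.

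The glutathione genes were *Gclc*, *Gclm* and *Slc7a11*. *Gclc* and *Gclm* encode the catalytic and the modifier subunit of glutamate-cysteine ligase, the rate-limiting enzyme of glutathione synthesis, and *Slc7a11* encodes the cystine importer xCT. *Gclc* (chromosome 9, 77754535 to 77794485) was at 28.0, 29.8 and 30.0 CPM in F1 control and at 24.4, 27.8 and 25.5 CPM in F1 *thia*. All *thia* libraries were below all control libraries, and the log2 fold change was -0.16 (interval -0.38 to 0.06, adjusted p = 0.639, edgeR). In F3 *Gclc* was at 27.4, 24.8 and 29.1 CPM in control and at 27.5, 36.6 and 21.7 CPM in *thia*. Here the *thia* libraries surrounded the control range, and the log2 fold change of 0.07 (interval -0.36 to 0.50) became -0.14 without *thia* replicate 2.

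*Gclm* (chromosome 3, 122245557 to 122270732) was at 31.1, 30.4 and 33.8 CPM in F1 control and at 28.4, 34.7 and 28.5 CPM in F1 *thia*, with overlap. In F3 control it was at 56.0, 55.8 and 72.9 CPM, and in F3 *thia* at 44.4, 104 and 44.3 CPM. The *thia* group thus held both the lowest libraries and the highest one. Its log2 fold change in F3 was 0.06 (interval -0.73 to 0.84, adjusted p = 0.944, edgeR) with all libraries and -0.48 (adjusted p = 0.112) without *thia* replicate 2. Over all alternatives the adjusted p lay between 0.112 and 0.996. Exons of *Gclm* overlap over 296 bp with a transcript of the opposite strand and over 244 bp with a pseudogene of the same strand, and how the counting treated such reads is not stated. *Slc7a11* (chromosome 3, 49892526 to 50443614) was at 2.86, 3.71 and 5.67 CPM in F1 control, at 3.01, 3.22 and 2.28 CPM in F1 *thia*, at 3.26, 2.62 and 2.15 CPM in F3 control and at 3.02, 1.90 and 2.61 CPM in F3 *thia*. Its log2 fold change was -0.50 in F1 (interval -1.08 to 0.08, adjusted p = 0.603, edgeR) and -0.09 in F3 (interval -0.66 to 0.49). The F1 control libraries of this gene differed among themselves more than those of any other member, by a coefficient of variation of 35.4%.

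The superoxide dismutases had fitted *thia* effects of opposite sign in each generation, and none passed the adjusted test. *Sod1* (chromosome 16, 90220754 to 90226329) encodes the copper and zinc enzyme of the cytosol. It was at 256 CPM in F1 control replicate 1, at 260.2 in replicate 2 and at 195 in replicate 3, and in F1 *thia* at 258, 237 and 283 CPM. The groups overlapped, with a log2 fold change of 0.14 (interval -0.13 to 0.42), which was 0.02 to 0.22 with each library left out in turn. In F3 *Sod1* was at 334, 299.97 and 335 CPM in control and at 268, 276 and 300.02 CPM in *thia*. Only the highest *thia* library reached the lowest control library. The log2 fold change in F3 was -0.20 (interval -0.40 to -5.1e-05, adjusted p = 0.237, edgeR), and it was -0.27 to -0.17 with each library left out in turn. *Sod2* (chromosome 17, 13006846 to 13040063) encodes the manganese enzyme of mitochondria. Its levels were 54.5, 52.5 and 58.1 CPM in F1 control, 46.4, 51.2 and 53.9 CPM in F1 *thia*, 46.7, 52.2 and 53.8 CPM in F3 control and 51.7, 60.8 and 58.2 CPM in F3 *thia*. Groups overlapped in both generations, and the log2 fold change was -0.11 in F1 (interval -0.32 to 0.10) and 0.16 in F3 (interval -0.06 to 0.38). The effect of *thia* on *Sod2* was 0.28 higher in F3 than in F1 (interval 0.01 to 0.56, adjusted p = 0.345, edgeR). For *Sod1* that difference was -0.33 (interval -0.67 to 0.02, adjusted p = 0.372).

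*Cat* (chromosome 2, 103453849 to 103485160) encodes catalase, the peroxisomal enzyme that splits hydrogen peroxide and that red blood cells also hold in large amounts. In F1 it was at 93.5, 84.6 and 88.0 CPM in control and at 86.0, 93.9 and 79.8 CPM in *thia* testis. The log2 fold change was -0.02 (interval -0.22 to 0.18), so a change of more than 0.22 in either direction lay outside the interval. In F3 control it was at 138, 148 and 178 CPM and in F3 *thia* at 108, 216 and 119 CPM. As for *Gclm*, F3 *thia* replicate 2 was the highest of all libraries and the other *thia* libraries were below the control range. The log2 fold change in F3 was -0.07 (interval -0.68 to 0.54) with all libraries and -0.44 (adjusted p = 0.114, edgeR) without *thia* replicate 2, where the range over all alternatives was 0.114 to 0.937.

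*Hmox1* (chromosome 8, 75093621 to 75100589) encodes haem oxygenase 1, which degrades haem to biliverdin, iron and carbon monoxide. Its levels were 83.5, 93.1 and 71.6 CPM in F1 control and 69.8, 77.1 and 68.6 CPM in F1 *thia* testis. In F3 they were 58.4, 52.0 and 64.7 CPM in control and 55.1, 57.1 and 50.5 CPM in *thia*. The means were lower in *thia* in both generations, and the groups overlapped in both (log2 fold change -0.19, interval -0.43 to 0.05 in F1, and -0.11, interval -0.35 to 0.13 in F3). *Nqo1* (chromosome 8, 107388225 to 107403206) encodes NAD(P)H quinone dehydrogenase 1, which reduces quinones and is among the genes most used to read NRF2 activity. It was at 12.7, 12.9 and 13.7 CPM in F1 control, at 11.6, 12.1 and 14.2 CPM in F1 *thia*, at 15.1, 13.4 and 19.1 CPM in F3 control and at 13.9, 15.6 and 16.7 CPM in F3 *thia*. The log2 fold change was -0.04 in F1 (interval -0.30 to 0.23) and -0.04 in F3 (interval -0.41 to 0.33).

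Counted over the list, 0 of 10 members passed an FDR of 0.15 in F1 with edgeR, where 0.0105% of 19137 genes did. At an unadjusted p under 0.05 the count was 0 of 10, against 8.76% of all genes. DESeq2 called 0 members, against 1.07% of the 18551 genes to which it gave an adjusted p. The groups did not overlap in 2 of 10 members, *Gclc* and *Txnrd1*, against 15.0% of all genes. The sign was negative for 8 of 10, and the median log2 fold change was -0.07 against 0.0094 over all genes tested. In F3, 0 of 10 members passed an FDR of 0.1 with edgeR. No gene did (0% of 18539), and the smallest adjusted p of any gene was 0.101. An unadjusted p under 0.05 was found for *Srxn1* and *Sod1*, 2 of 10 members against 21.1% of all genes. DESeq2 called *Srxn1*, 1 of 10 higher against 9.54% of the 14768 genes with an adjusted p, and 0 of 10 lower against 5.95%. The groups did not overlap for 1 of 10 against 27.3%. The median over the members was -0.0021 against 0.0044 over all genes, with 5 of 10 positive. For the contrast of the F3 effect with the F1 effect, edgeR called 0 members, against 0.00510% of 19626 genes. DESeq2 called 0, against 4.67% of the 13575 genes with an adjusted p. *Sod2* alone had an unadjusted p under 0.05, 1 of 10 against 14.0%. These shares of members were below or near those of all genes in each comparison of *thia* with control.

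**Figure D2:**
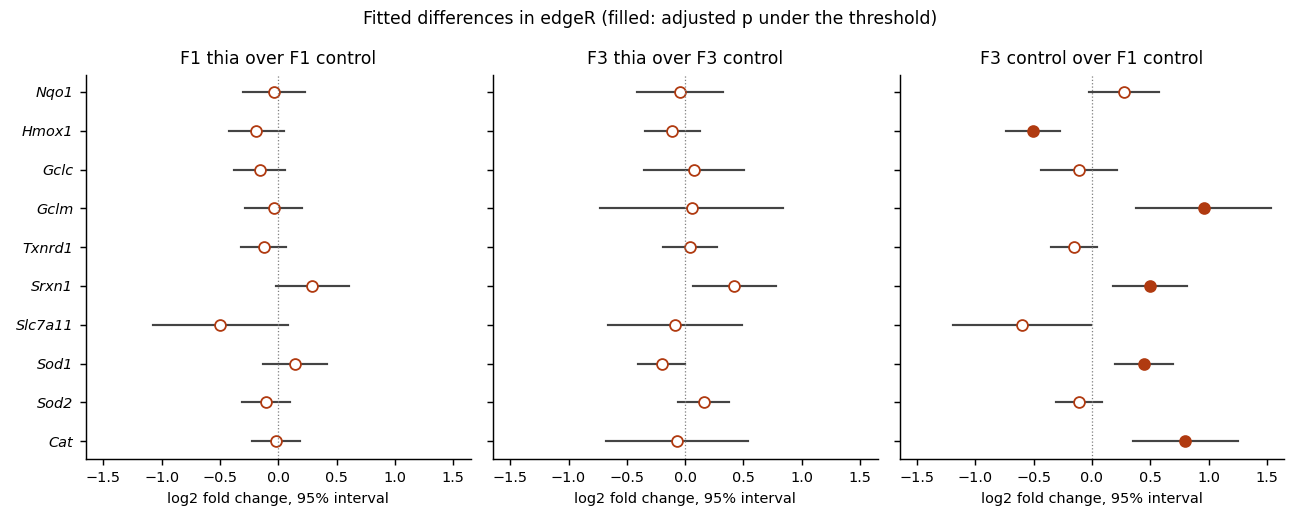
Fitted log2 fold changes of the 10 genes (horizontal axis) with 95% intervals from edgeR, for *thia* over control in F1 and in F3 and for F3 control over F1 control. Filled points passed the adjusted threshold of that comparison. All points are open in both *thia* panels, and 5 are filled between the control groups, from -0.50 for *Hmox1* to 0.96 for *Gclm*.

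Control testes of the generations were compared as the background of these measurements. Of the 10 members, 5 passed an FDR of 0.1 between F3 control and F1 control with edgeR, where 42.3% of all genes passed, so the share of members was near the background. *Gclm* was 1.94-fold higher in F3 (log2 fold change 0.96 with a standard error of 0.268, adjusted p = 0.0169, edgeR), and *Cat* was 1.74-fold higher (0.80, standard error 0.206, adjusted p = 0.0111). *Srxn1* was 1.41-fold higher (0.50, adjusted p = 0.0200), and *Sod1* was 1.36-fold higher (0.45, adjusted p = 0.0104, edgeR). *Hmox1* was lower in F3, with a log2 fold change of -0.50 (adjusted p = 0.00411, edgeR). None of these 5 overlapped between the control groups, and each kept its side of the threshold with every library left out in turn. *Txnrd1* did not overlap either, which made 6 of 10 against 48.8% of all genes, but did not pass the test (-0.16, adjusted p = 0.204). DESeq2 called 6 members against 40.3% of the 20380 genes with an adjusted p, adding *Slc7a11* (edgeR log2 fold change -0.60, adjusted p = 0.111). The F1 and F3 libraries were collected from different generations of mice. The mothers of F1 control embryos had received oil by gavage, while the mothers of F3 embryos were untreated. Generation, dosing with oil, collection and library preparation therefore cannot be told apart. Some cell marker sums separated the same control groups without overlap, as 48.8% of single genes did. The ovarian sum did so too, at 14.4 to 15.7 CPM in F1 control and 21.95 to 25.9 CPM in F3 control. Leydig cell, interstitial, adrenal, mesonephros and skeletal muscle sums overlapped. In F1 control and F3 control, in this order, the summed red blood cell markers were at 5264 to 15505 and 62332 to 67057 CPM, and macrophage markers at 56.1 to 68.7 and 118 to 195 CPM. Sertoli cell markers were at 1186 to 1466 CPM in F1 control and 652 to 853 CPM in F3 control, germ cell markers at 867 to 1162 and 532 to 804 CPM, and endothelial markers at 202 to 249 and 144 to 164 CPM. Single markers went against their sum in 2 of these lists. Of 6 Sertoli cell markers 1 had a positive fold change, and of 5 endothelial markers 1 did. The part of these markers in the differences of the members was not tested. The summed level of the 10 genes was 590.1 to 659 CPM in F1 control and 736 to 848 CPM in F3 control libraries, of which *Sod1* made up 31.6 to 44.0% over all 12 libraries.

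The red blood cell sum was the only marker sum set against the members, and in F3 it varied most closely with *Cat* and *Gclm*. The summed markers were at 62332 to 67057 CPM in F3 control, at 45447 and 49858 CPM in F3 *thia* replicates 1 and 3 and at 83556 CPM in *thia* replicate 2. *Cat* and *Gclm* were likewise lowest in replicates 1 and 3 of F3 *thia* and highest in replicate 2, with the F3 control libraries between them. Over the 6 F3 libraries *Cat* correlated with the summed markers at a Pearson's r of 0.93 (exact permutation p = 0.00833, adjusted over 20 relations 0.0833) and a Spearman's rho of 0.83 (p = 0.0583, adjusted 0.583). For *Gclm* r was 0.92 (exact permutation p = 0.00833, adjusted 0.0833) and rho 0.89 (p = 0.0333, adjusted 0.583). Without the 2 libraries farthest from the median of the markers, *thia* replicates 1 and 2, r was 0.72 for *Cat* and 0.78 for *Gclm* over 4 libraries. This r mainly sets *thia* replicate 3, at 49858 CPM of the markers, against the controls at 62332 to 67057 CPM. It cannot show whether the relation holds among libraries of 1 group. The adjusted p of both Pearson relations was thus under 0.1, and that of both rank relations was not. The permutations exchanged control and *thia* libraries freely, so these p do not separate the relations from differences between the groups. Within F3 control, *Cat* and *Gclm* were highest in replicate 3, at 178 and 72.9 CPM, while the markers were highest in replicate 1, at 67057 CPM. In F1, where the markers were lower, r was 0.77 for *Cat* (exact permutation p = 0.0778, adjusted 0.311) and turned to -0.30 without the 2 farthest libraries. For *Gclm* in F1, r was 0.38 (exact permutation p = 0.443, adjusted 0.805) and turned to -0.90 without them. Other members had a lower r over the 6 F3 libraries. *Sod1* and *Hmox1* had an r of 0.17 and 0.44 there, and of 0.77 and 0.75 over the 4 libraries. *Gclc* had an r of 0.79 (exact permutation p = 0.0639, adjusted 0.311) and a rho of 0.54 (p = 0.297, adjusted 0.712), with an r of 0.93 over the 4 libraries. *Txnrd1* had an r of 0.80 (exact permutation p = 0.0569, adjusted 0.311) and a rho of 0.43 (p = 0.419, adjusted 0.762), with an r of 0.31 over the 4 libraries. *Srxn1* had an r of 0.20 (exact permutation p = 0.711, adjusted 0.869) and a rho of -0.03 (p = 1, adjusted 1), and its r was -0.88 over the 4 libraries. The macrophage sum was also highest of F3 in *thia* replicate 2, at 207 CPM, and its relation to the members was not tested. In bulk testis, a different number of red blood cells and a different RNA level per cell cannot be told apart. Their part in these results was not tested.

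**Figure D3:**
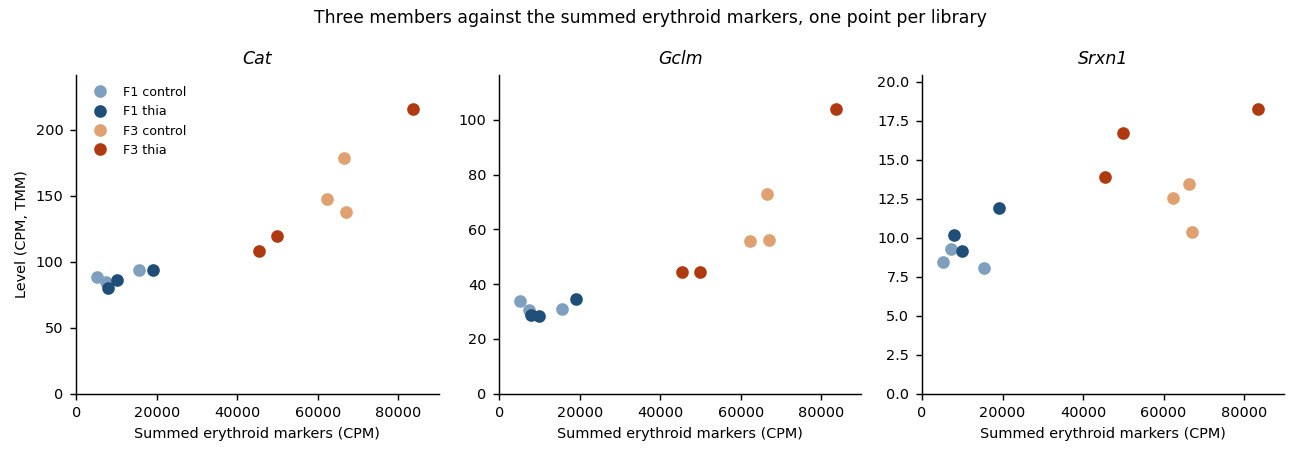
Levels of *Cat*, *Gclm* and *Srxn1* (vertical axes, CPM) against the summed level of 8 red blood cell markers (horizontal axes, CPM), with 1 point per library coloured by group. F1 libraries lie at 5264 to 19079 CPM of the markers and F3 libraries at 45447 to 83556 CPM, and *Cat* and *Gclm* are highest in the library with the highest sum.

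Some sums of other cell markers also separated the F3 groups in which *Srxn1* did not overlap, as 27.3% of single genes did in either direction. The sum of 5 Leydig cell markers was 3800 to 6881 CPM in F3 *thia* and 2166 to 3596 CPM in F3 control. That of 5 endothelial markers was 215 to 257 against 144 to 164 CPM, and that of 6 adrenal markers 66.7 to 120.4 against 40.9 to 59.2 CPM. Germ cell markers overlapped at 352 to 632 against 532 to 804 CPM, and macrophage markers at 120.3 to 207 against 118 to 195 CPM. Sertoli cell, interstitial, mesonephros, ovarian and skeletal muscle sums overlapped as well. In F1, Leydig cell markers (2623 to 4024 CPM in *thia*, 3151 to 3755 CPM in control) and endothelial markers (219.7 to 267 against 202 to 249 CPM) overlapped between the groups. Germ cell markers overlapped at 752 to 921 against 867 to 1162 CPM, and all 6 had a negative fold change in F1 and in F3. The ovarian sum was at 16.9 to 17.5 against 14.4 to 15.7 CPM, without overlap, as for 15.0% of single genes. Of its markers 3 were positive and 1 was negative. The adrenal sum was at 39.0 to 47.2 CPM in *thia* and 50.8 to 65.5 CPM in control, without overlap and in the opposite direction to F3. *Cyp11b1* and *Cyp21a1* had the highest levels in this list, and its genes were divided. The fold changes of 3 were positive and of 3 negative in F1, and of 4 positive and of 2 negative in F3. No marker of these lists was at 0 in any library, and the part of cell composition in the level of *Srxn1* was not tested. F1 *thia* replicate 2, which had the highest *Srxn1* of F1, had 514 CPM of skeletal muscle markers where the other F1 libraries had 21.3 to 63.5 CPM, and without it the F1 log2 fold change of *Srxn1* was 0.19.

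Upstream of the defence genes, *Nfe2l2* encodes NRF2, *Keap1* its inhibitor and *Bach1* a repressor that competes for the same element. *Nfe2l2* was at 57.8, 54.2 and 61.3 CPM in F1 control and at 53.1, 54.5 and 54.9 CPM in F1 *thia*. In F3 it was at 43.7, 48.7 and 49.0 CPM in control and at 53.8, 56.5 and 54.6 CPM in *thia*, without overlap. Its log2 fold change was -0.08 in F1 and 0.22 in F3 (interval 0.04 to 0.40, adjusted p = 0.169, edgeR), and the effects differed by 0.31 (interval 0.09 to 0.54, adjusted p = 0.255). Between controls it was lower in F3 by a log2 fold change of -0.29 (adjusted p = 0.0100, edgeR). *Keap1* ranged from 52.7 to 60.5 CPM in F1 control, 57.6 to 64.6 CPM in F1 *thia*, 58.1 to 70.1 CPM in F3 control and 67.1 to 79.2 CPM in F3 *thia* (F3 log2 fold change 0.20, interval -0.05 to 0.45, adjusted p = 0.325, edgeR). *Bach1* had a log2 fold change of -0.09 in F1 and -0.06 in F3, with intervals of -0.33 to 0.14 and -0.27 to 0.16. NRF2 is controlled mainly through its protein, which was not measured in these libraries.

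Among all 10 regulators, none passed the adjusted test of edgeR in either generation. In F3, 3 were higher and 1 was lower at an unadjusted p under 0.05, where 21.1% of all genes were in either direction. In F1 none was, where 8.76% of all genes were. *Nfe2l1*, which encodes a relative of NRF2, had a log2 fold change of 0.61 in F3 (adjusted p = 0.111, edgeR), at 102 to 133 CPM in control and 149 to 211 CPM in *thia*. *Rbx1*, a subunit of the ubiquitin ligase that KEAP1 recruits, had -0.32 (adjusted p = 0.107, edgeR), at 157 to 166 CPM in control and 121 to 134 CPM in *thia*. DESeq2 called both in F3, with adjusted p of 0.00437 and 0.0245. The median of the regulators was -0.05 in F1 and 0.17 in F3.

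In the remaining glutathione pathway, 19 genes were tested. In F1, 3 were higher and 1 was lower at an unadjusted p under 0.05 (8.76% of all genes in either direction), with 0 called by edgeR after adjustment. *Ggt1*, a cell surface enzyme that breaks down glutathione, was at 1.78 to 2.42 CPM in control and 3.37 to 4.98 CPM in *thia* (log2 fold change 0.88, adjusted p = 0.446, edgeR, and 0.0628 in DESeq2, which called it). The peroxidase relative *Gpx7* had 0.25 (adjusted p = 0.529, edgeR). In F3, 3 were higher and 2 lower at that p (21.1% of all genes), and again 0 were called. *Glrx3*, a glutaredoxin that handles iron-sulfur clusters, was at 284, 269.9 and 264 CPM in control and at 202, 197 and 199 CPM in *thia* (-0.45, adjusted p = 0.101, edgeR). *Slc3a2*, which encodes the heavy chain that carries xCT to the membrane, was at 117, 124 and 116 CPM in control and at 160.3, 147 and 205 CPM in *thia* (0.52, adjusted p = 0.110, edgeR). The heavy chain thus separated the F3 groups while the transporter *Slc7a11* did not. DESeq2 called both genes in F3, with adjusted p of 5.02e-05 and 0.00674.

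Of 19 further thioredoxin and peroxiredoxin genes, 16 had a negative log2 fold change in F3 and 6 in F1, with medians of -0.13 and 0.09. Of all 18539 genes in F3, 9160 were negative. At an unadjusted p under 0.05, 4 were lower and 1 was higher in F3, against 21.1% of all genes, and 1 was higher in F1, against 8.76%, the mitochondrial reductase *Txnrd2* (0.29, adjusted p = 0.518, edgeR). *Msrb2*, a mitochondrial methionine sulfoxide reductase, was at 27.4, 26.1 and 27.0 CPM in F3 control and at 17.8, 15.7 and 16.9 CPM in F3 *thia* (-0.68, adjusted p = 0.101, edgeR, and 2.46e-06 in DESeq2). *Nxn*, nucleoredoxin, had -0.26 (adjusted p = 0.126, edgeR). *Srxn1*, which acts on peroxiredoxins, thus had a positive fold change in F3 where most genes of this list had a negative one. None of the 19 passed the adjusted test of edgeR in F1 or F3.

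**Figure D4:**
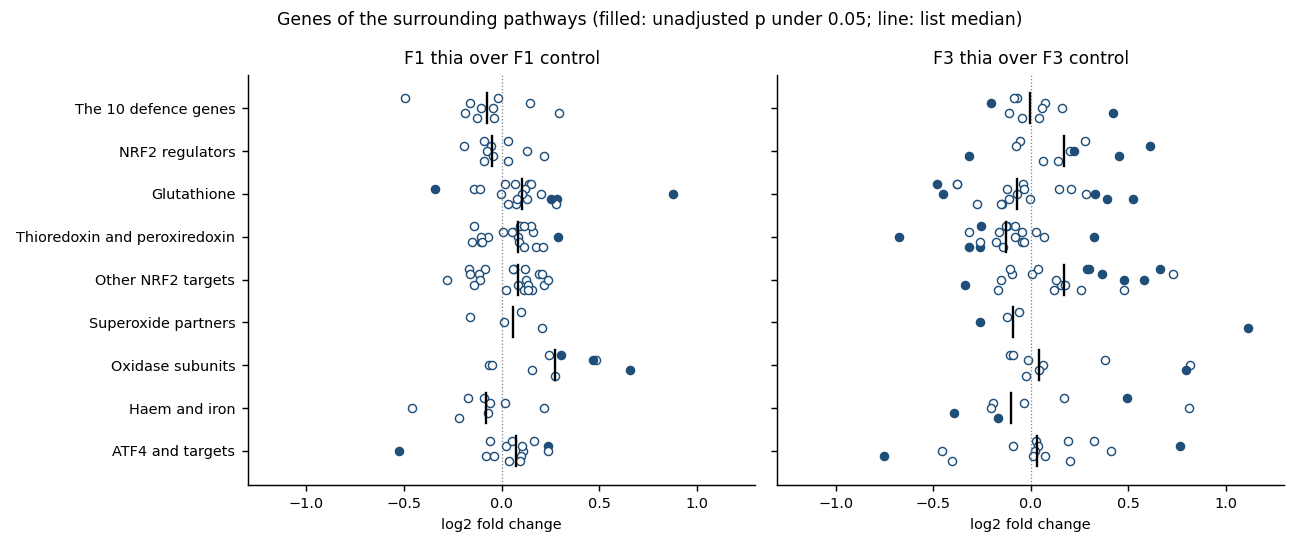
Log2 fold changes (horizontal axis) of *thia* over control in F1 and F3 for the 10 defence genes and 8 lists of the surrounding pathways, with 1 point per gene. Filled points have an unadjusted p under 0.05 in edgeR and short lines are list medians, and none of the points passed the adjusted threshold. Medians lie between -0.08 and 0.27 in F1 and between -0.13 and 0.17 in F3.

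The other NRF2 targets, 21 genes of conjugation, NADPH supply and iron storage, held 16 positive and 5 negative log2 fold changes in F3, with a median of 0.17, and a median of 0.09 in F1. At an unadjusted p under 0.05, 6 were higher and 1 was lower in F3 (21.1% of all genes in either direction) and none in F1 (8.76%), with 0 called by edgeR. Of all genes in F3, 9379 were positive and 9160 negative. *Gstp1*, a glutathione transferase, was at 86.6, 117 and 113 CPM in F3 control and at 143, 154 and 146 CPM in F3 *thia* (0.48, adjusted p = 0.114, edgeR). *Mgst1*, a transferase of membranes, was at 99.4 to 107 CPM in control and 117 to 139 CPM in *thia* (0.30, adjusted p = 0.136, edgeR). Among 4 partners of the superoxide enzymes, *Sod3*, the extracellular dismutase, was at 8.87, 10.3 and 11.4 CPM in F3 control and at 17.5, 22.4 and 26.2 CPM in F3 *thia*. Its log2 fold change was 1.11 (interval 0.70 to 1.53, adjusted p = 0.101, edgeR, and 1.03e-06 in DESeq2), and in F1 it was 0.20 (adjusted p = 0.672). *Park7*, whose product protects mitochondria from oxidants, had -0.26 in F3 (adjusted p = 0.163, edgeR).

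Of 9 tested subunits of NADPH oxidases, which make superoxide or peroxide, 3 were higher in F1 at an unadjusted p under 0.05 and none was lower, where 4.63% of all genes were higher and 4.13% lower. *Ncf4* had a log2 fold change of 0.47 and *Cyba* one of 0.31 (both adjusted p = 0.556, edgeR). The third was *Duox2*, a dual oxidase, with 0.66 (adjusted p = 0.556, edgeR), at levels under 1 CPM. The products of *Ncf4* and *Cyba* are found in the oxidase of phagocytes. Summed macrophage markers were 71.8 to 89.8 CPM in F1 *thia* and 56.1 to 68.7 CPM in F1 control, without overlap. Their part in these values was not tested. In F3 *Duox2* had 0.79 (adjusted p = 0.185, edgeR), again at levels under 1 CPM. Of 8 tested genes of haem and iron handling, 1 was higher and 2 were lower in F3 at that p, against 21.1% of all genes in either direction. *Hmox2*, the constitutive haem oxygenase, was at 91.0, 87.4 and 83.6 CPM in F3 control and at 76.0, 59.7 and 63.9 CPM in F3 *thia* (-0.39, adjusted p = 0.113, edgeR). *Slc11a2*, an iron importer, had 0.49 (adjusted p = 0.132, edgeR).

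*Slc7a11* is also a target of ATF4, the transcription factor of amino acid shortage, so 14 genes of that response were read beside it. In F1, the secreted stanniocalcin gene *Stc2* had a log2 fold change of -0.52 and *Asns*, asparagine synthetase, one of 0.24 (adjusted p of 0.506 and 0.518, edgeR). In F3 *Slc7a5*, which pairs with the same heavy chain as xCT, was at 131, 139 and 119.9 CPM in control and at 205, 192 and 265 CPM in *thia* (0.77, adjusted p = 0.105, edgeR). *Phgdh*, the first enzyme of serine synthesis, was at 446, 319.8 and 333 CPM in control and at 250.4, 209.8 and 193 CPM in *thia* (-0.75, adjusted p = 0.105, edgeR). Both were called in F3 by DESeq2, with adjusted p of 3.64e-05 and 0.000564. The median of the list was 0.03 in F3 and 0.07 in F1, with 10 positive and 4 negative fold changes in each generation.

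The difference between the *thia* effects of the generations was tested for the same lists, and 0 of their genes passed an FDR of 0.1 with edgeR. Those with the smallest p in each list were *Msrb2* (effect in F3 minus effect in F1 -0.74), *Nxn* (-0.42), *Glrx3* (-0.43), *Slc3a2* (0.46), *Nfe2l1* (0.68), *Sod3* (0.93), *Slc11a2* (0.68), *Hmox2* (-0.31), *Slc7a5* (0.68) and *Stc2* (0.95), with adjusted p of 0.248 to 0.302 in edgeR. Among the other NRF2 targets they were *Ephx1*, an epoxide hydrolase (0.85, adjusted p = 0.258, edgeR), and *Taldo1*, transaldolase (-0.45, adjusted p = 0.277, edgeR). DESeq2 called *Msrb2*, *Nxn*, *Glrx3*, *Nfe2l1*, *Sod3*, *Slc11a2*, *Slc7a5*, *Stc2* and *Ephx1* for this difference, and also *Phgdh* (-0.84) and the peroxiredoxin gene *Prdx5* (-0.51). In the mean of both effects, the contrast added after the values had been seen, 2.75% of all genes passed an FDR of 0.1 with edgeR. *Sod3* (0.65), *Slc7a5* (0.43) and *Duox2* (0.72) were higher and *Glrx3* (-0.23), *Msrb2* (-0.30) and *Hmox2* (-0.24) lower, with adjusted p of 0.0803 to 0.0961 (edgeR). A mean can rest on 1 generation. In F1 alone the log2 fold changes were 0.20 for *Sod3*, 0.10 for *Slc7a5* and 0.66 for *Duox2*. For *Glrx3*, *Msrb2* and *Hmox2* they were -0.0028, 0.085 and -0.072, so *Msrb2* had the opposite sign in F1.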

How the data were processed

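The 12 count tables, 3 per group, come from libraries of embryonic testis. The authors mapped stranded paired-end reads to mm10 with HISAT2 2.1.0 and summarised them by gene with featureCounts, using refGene, after base calling with bcl2fastq 2.20.0.422 (versions from the submitters' processing notes). The deposited values are raw counts for 35976 symbols, with 0 rows that name no gene. The counting options are not given in the sources used here.

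Tests were made with edgeR 4.0.16 in R 4.3.3, by its quasi-likelihood test with TMM scaling and Benjamini-Hochberg adjustment, after the filterByExpr filter with its minimum count set to 10. As in the study, the FDR threshold was 0.15 in F1 and 0.1 elsewhere. DESeq2 1.42.0 was the alternative tool. The contrast between generations, their mean and the control comparison came from one fit of the 12 libraries. Intervals are at 95%, from the quasi-likelihood degrees of freedom. Exon lengths are those of mm10 transcripts shared by GENCODE M21 and RefSeq. Other alternatives were upper quartile scaling, DESeq2 size factors, a minimum of 10 counts in every library, no filter, an FDR of 0.05, the control libraries alone, the 12 libraries fitted together, a replicate block and leaving out each library. The scripts were tested on simulated data with 200 changed genes, and figures were drawn with Python 3.11.15 and matplotlib 3.10.9.

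The members and lists were chosen with earlier results of these data known. Named are the members, *Nfe2l2*, *Keap1*, *Bach1* and, per pathway list and *thia* comparison, at most 2 genes with the smallest p among those with an unadjusted p under 0.05 in edgeR. *Flvcr1*, listed among the haem genes, was not analysed here.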

Additional observations from a re-analysis of the deposited data

How the results depend on the processing

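Where edgeR called 0 members in F3, DESeq2 called 1, *Srxn1*, and the control comparison gave 5 to 6 under every setting. In F1 the members with an unadjusted p under 0.05 numbered 0, and 1 with no low-count filter, 1 with upper quartile scaling and 0 to 1 with a library left out. In F3 they numbered 2, and 1 under DESeq2, DESeq2 size factors, no filter, all 12 libraries in one fit and the replicate block, and 0 to 2 with a library left out. For the difference between generations they numbered 1, and 0 under DESeq2 and DESeq2 size factors, and 0 to 2 with a library left out. The cause was not tested.

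Over all genes, the 2 calls of F1 became 199 in DESeq2, 243 without the filter, 0 in the fit of 12 libraries and 0 to 20 with a library left out. In F3 the 0 calls became 2288 in DESeq2, 520 with upper quartile scaling, 569 without the filter, 333 at 10 counts in every library, 1936 in the fit of 12 libraries and 1294 without *thia* replicate 2. For the difference, 1 call became 634 in DESeq2 and 0 to 4 with a library left out.

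The sign changed only for fold changes near 0 that were not called. *Gclm* in F3 was -0.060 under the replicate block, *Nqo1* in the difference -0.064 with upper quartile scaling and *Cat* in the difference 0.0042 without the filter. With a library left out, *Cat* was -0.081 to 0.033 in F1, -0.44 to 0.11 in F3 and -0.41 to 0.18 in the difference. *Gclm* was -0.14 to 0.0082, -0.48 to 0.26 and -0.42 to 0.35, and *Nqo1* was -0.14 to 0.022, -0.17 to 0.12 and -0.095 to 0.17, in the same order. In F3 *Gclc* was -0.14 to 0.24, *Slc7a11* -0.25 to 0.074 and *Txnrd1* -0.058 to 0.085.

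Replicates share numbers across groups, and same-numbered libraries correlated at -0.04 to 0.03 in F1 and -0.37 to 0.19 in F3, so the numbers were not taken as pairs. The replicate block called 0 members in F1, F3 and the difference. *Slc7a11*, the member with the fewest counts, 66 to 226 per library, is the least precise.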
